A study of Caenorhabditis elegans with 10 samples.

Results

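Among the circular RNAs (circRNAs) counted in this study were those of *png-1* and *gly-4*, a pair of genes whose enzymes act on protein glycans, and each gene was represented by a single back-splice junction. These 2 loci, among 141 in the count table, were picked by host gene name: a locus belonged here when the study's list of detected circRNAs assigned it to *png-1* or *gly-4*. The 2 genes were chosen with earlier results of these data known. Counts came from whole hermaphrodites on day 3 of adulthood, 5 biological replicates of *nova-1* mutants (strain VDL1105, allele tm6146, an outcrossed deletion mutant) and 5 of wild-type (strain N2). Animals of both genotypes were fed *E. coli* OP50 and kept from the last larval stage on plates with fluorodeoxyuridine, which blocks progeny. The mutation itself could not be checked in these counts, since 0 loci had *nova-1* as host gene.

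A circRNA forms when the spliceosome joins the end of an exon back to the start of the same exon or of an exon upstream, and the junction that results is absent from the linear mRNA. NOVA proteins are RNA-binding splicing factors, and the comparison asks whether loss of the worm homolog alters the abundance of such junctions. PNG-1 is the cytosolic peptide N-glycanase, which strips N-linked glycans from glycoproteins exported from the endoplasmic reticulum for degradation. In *C. elegans* it also acts on the transcription factor SKN-1A, which then switches on proteasome genes. GLY-4 belongs to the polypeptide N-acetylgalactosaminyltransferases, Golgi enzymes that place the first sugar of mucin-type O-glycans on serine or threonine. The deglycosylating and the glycosylating enzyme therefore act on different glycans and in different compartments.

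The *png-1* circRNA (cel_circ_0000115) is a single-exon circle. In the Ensembl annotation of WBcel235, *png-1* (WBGene00010160) is a protein-coding gene on the plus strand of chromosome I from 11380231 to 11388751, with 1 annotated transcript of 10 exons. The count table writes the locus at 11384077 to 11384356. These ends missed exon 5 by a few bases, and moving both by 8 nt put them on its first and last base, 11384085 and 11384364. No other shift within 20000 nt placed the ends on exon ends of *png-1*. Exon 5 is 280 nt long and lies entirely within the coding sequence, of which it makes up 15.4%. Its length leaves a remainder of 1 base when divided into codons.

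The *gly-4* circRNA (cel_circ_new_0006215) is a circle of a pair of adjacent exons at the 5′ end of the coding sequence. *gly-4* (WBGene00001629) is a protein-coding gene on the minus strand of chromosome V from 19881372 to 19895350, 1.80 Mb from *nova-1* on the same chromosome, with 4 annotated transcripts. The count table writes the locus at 19887558 to 19888055. Read directly against WBcel235, that interval overlapped 0 exons of *gly-4* and lay within an intron. A shift of 4612 nt placed its ends on the outer ends of exons 3 and 2, 19892170 and 19892667, and was the only shift within 20000 nt that met exon ends of the gene. The same 4612 nt applied to all 4 loci of the table from *gly-4* to the right end of this chromosome. The table's coordinates there are therefore not those of WBcel235, although the study names that build. Smaller shifts were found across the table: of 101 loci that met host exon ends within 300 nt, 11 needed none. Exon 2 carries the start codon. With the 163-nt intron between them removed, exons 2 and 3 make 335 nt, of which 330 nt are coding. The splice acceptor of exon 2 is annotated in 1 of the 4 transcripts, the one drawn here, which has a further exon upstream. Junction reads show which ends were joined and do not show whether the inner intron was removed.

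**Figure D1:**
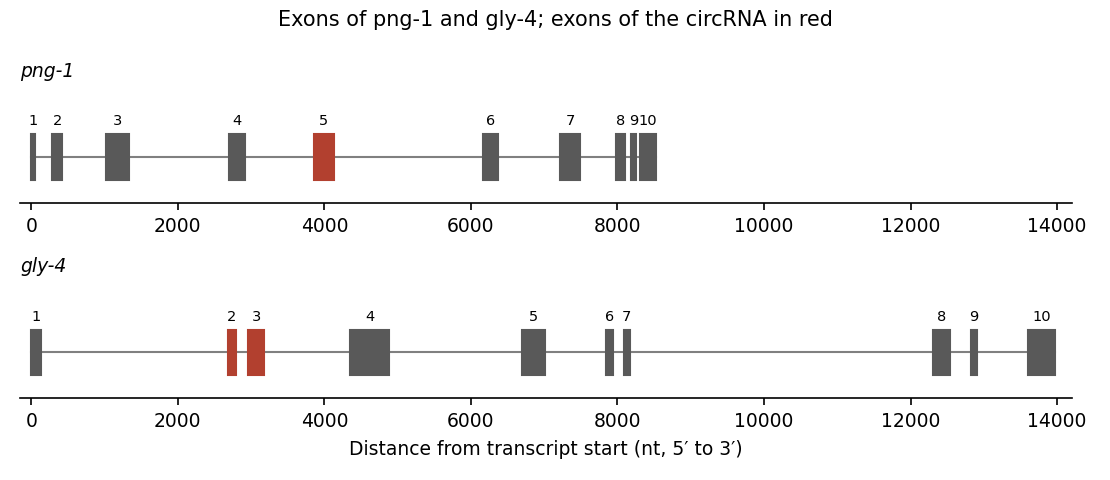
Exon maps of *png-1* (transcript F56G4.5.1) and *gly-4* (transcript Y116F11B.12a.1), drawn to scale from the WBcel235 annotation, with distance from the transcript start in nt on the x axis and exon numbers above the boxes. Red boxes mark the exons whose outer ends met the counted junction, exon 5 of *png-1* and exons 2 and 3 of *gly-4*.

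Both circles sat between long introns. Introns of 935 nt and 2025 nt precede and follow exon 5 of *png-1*, and the second of these is the longest of the 9 in its transcript. For *gly-4* the introns before exon 2 and after exon 3 measure 2551 nt and 1174 nt. All 4 exceeded at least 91.4% of the 109516 annotated introns of protein-coding genes, whose median is 68 nt. Long flanks were not particular to these circles. Among the other 97 loci whose ends met exon ends of their host gene with an intron on either side, the median was 1286 nt upstream and 1329 nt downstream, and 34 of them were single exons and 30 were exon pairs. By genomic span, *png-1* ranked 19 and *gly-4* ranked 58 from the shortest of the 141 loci.

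Library totals over the 141 loci were 8514 to 9437 counts in *nova-1* mutants and 7955 to 15014 in wild-type, the highest in wild-type replicate 1. That library also stood apart in composition, with a chi-square per degree of freedom of 16.9 to 26.2 against the other wild-type libraries, where all other pairs within a genotype had 2.40 to 7.86. The 95% intervals on shares given here cover counting error only. Normalized counts were scaled with TMM factors to the mean effective library of 9421 counts, and fold changes are *nova-1* over wild-type. In whole animals, fewer cells that make a circRNA and less of it per cell cannot be told apart. Linear *png-1* and *gly-4* mRNA was not analysed here, so a change in circle formation and a change in host transcription cannot be told apart either.

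The *png-1* circRNA fell in *nova-1* mutants, to an estimated 0.46 of its wild-type level with a 95% interval of 0.29 to 0.75. The raw counts were 25, 16, 10, 15 and 5 in *nova-1* replicates 1 to 5, against 40, 23, 27, 24 and 26 in wild-type replicates 1 to 5. Normalized, they were 20.4, 15.97, 8.92, 15.6 and 5.46 in *nova-1* mutants, against 35.9, 22.9, 31.5, 28.6 and 27.0 in wild-type. Every mutant replicate lay below every wild-type replicate, and the closest pair was *nova-1* replicate 1 and wild-type replicate 2. The means were 13.3 ± 6.01 in *nova-1* mutants and 29.2 ± 4.88 in wild-type (SD, n = 5 each). The log2 fold change was -1.11 (standard error 0.34, 95% interval -1.81 to -0.42), with an adjusted P of 0.0152 (edgeR quasi-likelihood test, Benjamini–Hochberg over 141 loci).

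That call has to be read against a table in which many loci moved. At an adjusted P under 0.05, 28.4% of the 141 loci were called in either direction, 22 higher and 18 lower in *nova-1* mutants. By a looser criterion, an absolute log2 fold change above 0.5 with an unadjusted P under 0.05, 19.1% of the loci were lower in the mutants, *png-1* among them (unadjusted P = 0.00259, edgeR). Replicates of the genotypes did not overlap at 24.8% of the loci. *png-1* ranked 24 by P and had the log2 fold change of rank 16 from the lowest.

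The fall of *png-1* depended in part on how libraries were scaled. On column totals without TMM factors its log2 fold change was -0.85 with an adjusted P of 0.0818 (edgeR), above the threshold, and 29 of the 39 loci then called were higher in the mutants. With TMM factors kept and wild-type replicate 1 left out, the log2 fold change was -1.02 with an adjusted P of 0.0164 (edgeR). Column totals without that library were not fitted.

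**Figure D2:**
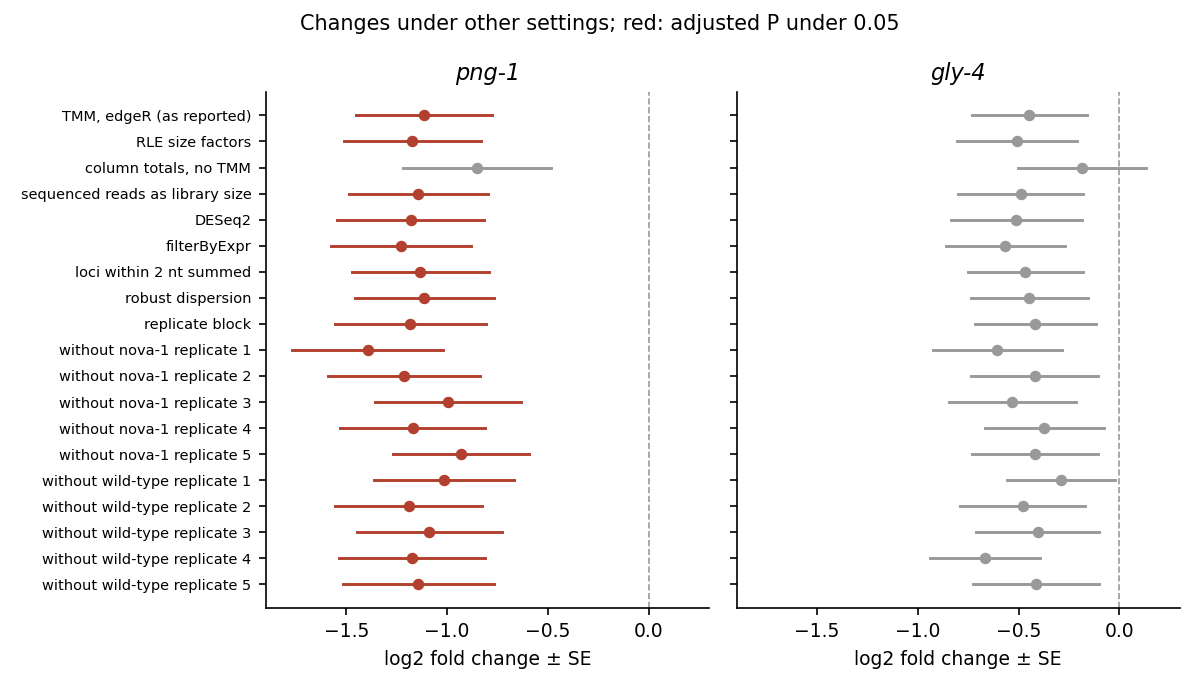
Log2 fold change ± standard error (x axis) of the *png-1* and *gly-4* circRNAs under each setting and without each replicate in turn (y axis), red where the adjusted P was under 0.05. *png-1* is red throughout except on column totals at -0.85, and *gly-4* is grey throughout, from -0.67 to -0.18.

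**Figure D3:**
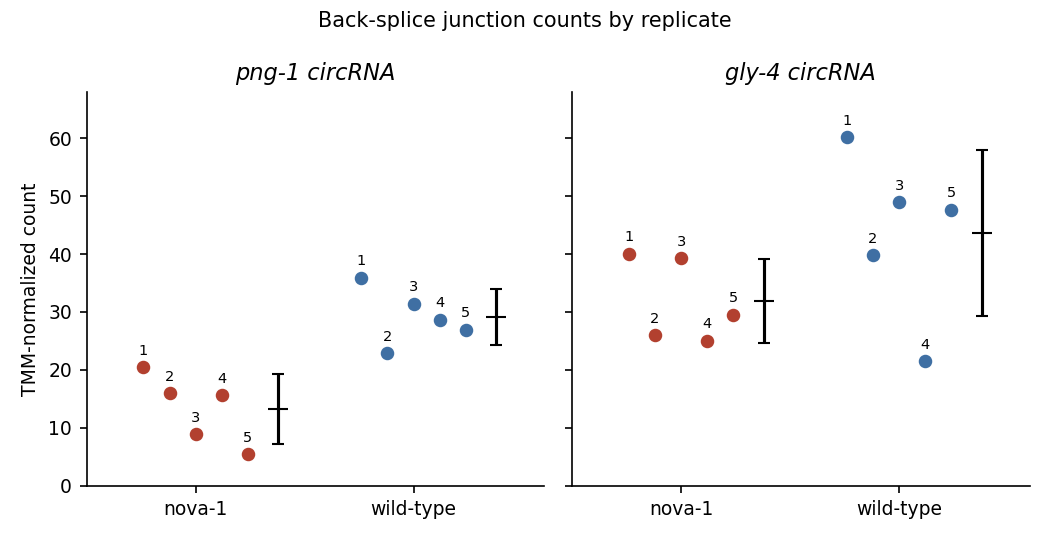
TMM-normalized counts of the *png-1* and *gly-4* back-splice junctions (y axis) in *nova-1* mutants and wild-type (x axis); numbered points are replicates and bars give the mean ± SD of 5 replicates. For *png-1* the mutants run from 5.46 to 20.4 and the wild-type from 22.9 to 35.9 without overlap, while for *gly-4* the ranges of 25.0 to 40.1 and 21.5 to 60.1 overlap.

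As a share of all circRNA counts in a library, that is on column totals without TMM factors, *png-1* took 0.157% ± 0.0799 in *nova-1* mutants and 0.285% ± 0.0404 in wild-type (SD, n = 5 each). The difference was -0.129 percentage points (p = 0.0159 by exact permutation, two-sided, unadjusted). On this same scale the fitted change had an adjusted P of 0.0818 (edgeR), above the threshold. On this scale the groups touched, since *nova-1* replicate 1 reached 0.265% (95% Wilson interval 0.180 to 0.391) and wild-type replicate 2 had 0.224% (0.149 to 0.335). The lowest library, *nova-1* replicate 5, had 5 of 8972 counts, a share of 0.0557% (0.0238 to 0.130), which did not reach the lowest wild-type share. The 3 loci with the most counts took 39.8% of the counts in *nova-1* mutants and 51.9% in wild-type on average. With those left out of the denominator, *png-1* stood at 0.256% in *nova-1* mutants and 0.592% in wild-type, and the replicates separated again (exact permutation test, p = 0.00794, the smallest that 5 against 5 allow).

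The replicates of the mutant were spread more widely for *png-1* than those of wild-type. The highest *nova-1* replicate had 3.75 times the normalized count of the lowest, against 1.57 times in wild-type. The SD of 6.01 in the mutants was above the 3.65 that the square root of the mean gives for counting error, and the SD of 4.88 in wild-type was below its 5.40. Whether the spreads of the genotypes differ was not tested.

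The *gly-4* circRNA was not distinguishable between the genotypes. Raw counts were 49, 26, 44, 24 and 27 in *nova-1* replicates 1 to 5, against 67, 40, 42, 18 and 46 in wild-type replicates 1 to 5. Normalized counts were 40.1, 25.9, 39.3, 25.0 and 29.5 in *nova-1* mutants, against 60.1, 39.8, 48.9, 21.5 and 47.7 in wild-type. Wild-type replicates 1, 3 and 5 lay above every mutant replicate. The ranges overlapped through wild-type replicate 4, the lowest of all 10 libraries, and wild-type replicate 2, which stood between mutant replicates 1 and 3. The means were 32.0 ± 7.24 in *nova-1* mutants and 43.6 ± 14.3 in wild-type (SD, n = 5 each). The log2 fold change was -0.45 (standard error 0.28, adjusted P = 0.251, edgeR). Its 95% interval of -1.03 to 0.13 runs from 0.49 to 1.10 times the wild-type level, and a fall nearly as deep as that of *png-1* therefore lies within reach of these data.

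As a share of all counts *gly-4* took 0.373% ± 0.113 in *nova-1* mutants and 0.424% ± 0.128 in wild-type (SD, n = 5 each), a difference of -0.051 percentage points (p = 0.508 by exact permutation, two-sided). This difference ran from -0.100 to -0.0149 when single libraries were left out. With the 3 top loci out of the denominator *gly-4* stood at 0.613% in *nova-1* mutants and 0.878% in wild-type, a difference of -0.266 points (p = 0.0873 by exact permutation). In counts per 1000000 sequenced reads the difference was -0.133 (p = 0.198 by exact permutation). Among the replicates, leaving out wild-type replicate 4 moved the fitted change most. Without it the log2 fold change was -0.67 with an unadjusted P of 0.0233 and an adjusted P of 0.0715 (edgeR), still above the threshold. Without wild-type replicate 1 it was -0.29, and on column totals without TMM factors it was -0.18 with an adjusted P of 0.751 (edgeR).

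Although *png-1* passed the threshold and *gly-4* did not, their changes were not shown to differ. The ratio of *png-1* to *gly-4* counts within a library, a comparison added after the values were seen, is free of library scaling. It was 0.510, 0.615, 0.227, 0.625 and 0.185 in *nova-1* replicates 1 to 5, against 0.597, 0.575, 0.643, 1.33 and 0.565 in wild-type replicates 1 to 5. Replicates 1, 3 and 5 of the mutant lay below every wild-type ratio, replicate 1 by little, and replicates 2 and 4 lay among the wild-type ratios. The log2 ratio averaged -1.38 ± 0.837 in *nova-1* mutants and -0.52 ± 0.526 in wild-type (SD, n = 5 each), a difference of -0.87 (p = 0.111 by exact permutation, two-sided).

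In level, *gly-4* was the more abundant of the pair. Every junction was counted on a scaffold of the same 200 nt, so counts of different loci refer to equal lengths. Over all 10 libraries *gly-4* averaged 37.8 ± 12.3 normalized counts and *png-1* averaged 21.2 ± 9.83 (SD), and *gly-4* had the higher count in 9 of the 10, wild-type replicate 4 being the exception. Among the 141 loci, *gly-4* held rank 35 and *png-1* rank 82. Next to *gly-4* in level were *Y65B4A.6* (39.2 ± 32.6) and *ccch-1* (37.1 ± 14.3), and next to *png-1* were *npp-8* (21.3 ± 9.42), a nucleoporin gene, and *Y69A2AR.16* (20.8 ± 7.72). These neighbours were picked as the loci next in rank, so their small distance from the members follows from the choice.

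**Figure D4:**
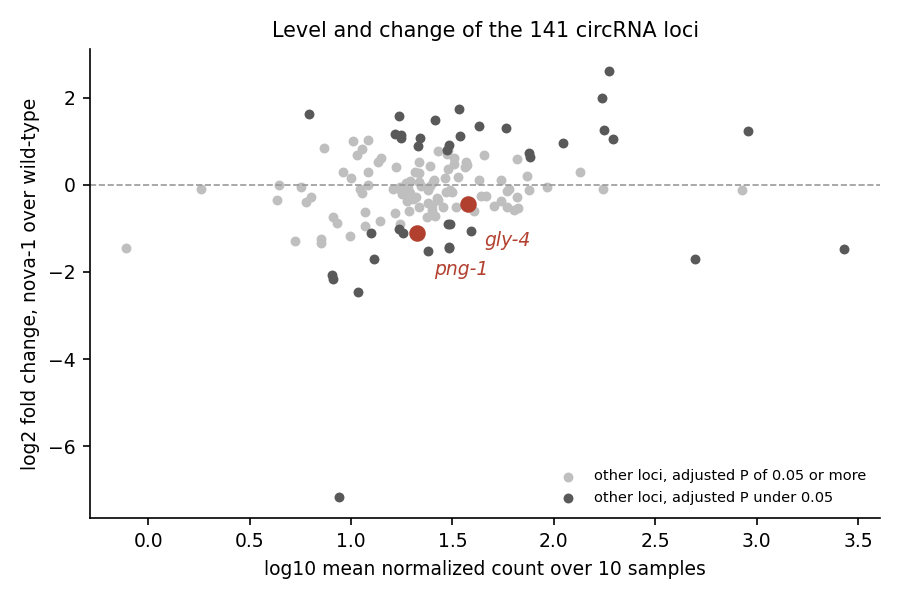
Log2 fold change of *nova-1* over wild-type (y axis) against the log10 mean normalized count over 10 samples (x axis) for the 141 loci; dark points passed an adjusted P under 0.05, light points did not, and the members are in red. *png-1*, at a mean of 21.2 counts and a log2 fold change of -1.11, lies among the called loci with lower values, and *gly-4*, at 37.8 and -0.45, lies among loci that were not called. The point at -7.15 is *ZK228.3*, with 0 counts in the mutants, and its height depends on the prior count of the fit.

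The circRNAs whose profile over the 10 libraries was most like that of *png-1* were those of *ZK228.3*, *K02D10.1* and *emb-4*, with Spearman's rho of 0.90, 0.81 and 0.81 on log2 normalized counts, given as a description. All 3 were lower in *nova-1* mutants (adjusted P = 4.38e-06, 0.000941 and 0.00529, edgeR). *ZK228.3* had 0 counts in all 5 mutant libraries, against a wild-type mean of 17.5 normalized counts, and the log2 fold change was -1.45 for *K02D10.1* and -2.08 for *emb-4*. With no mutant counts, *ZK228.3* reached the mean count of at least 5 asked of neighbours through wild-type alone. Normalized *png-1* counts separate by genotype, so loci that do likewise rank high in likeness. Their P values are therefore no separate support for the fall of *png-1*. *ZK228.3* and *emb-4* lie 0.376 Mb and 0.778 Mb from *nova-1* on chromosome V, whereas *K02D10.1* and *png-1* are on other chromosomes. Whether position bears on these changes was not tested. Nearest to *gly-4* were *Y39A3CL.7* with a rho of 0.75, *tbc-9* (the locus from 13485495 in the table) with 0.75 and *daf-25* with 0.66, and none of these was called (adjusted P of 0.237, 0.498 and 0.113, edgeR). Between *png-1* and *gly-4* themselves rho was 0.55 over the 10 libraries. The points share libraries and depth.

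Of 64 listed genes of glycan metabolism and of the pathway of PNG-1, 7 had a locus in the table, which leaves 5 loci besides *png-1* and *gly-4*. At the adjusted threshold 0 of the 5 were called (edgeR, and also 0 with DESeq2), and 1 had an unadjusted P under 0.05. With 28.4% of all loci called, a count of 0 among so few says nothing particular about these genes. Their median log2 fold change was -0.27, beside -0.10 over all 141 loci. The list fixed for PNG-1, degradation from the endoplasmic reticulum and SKN-1A held 14 genes, and the only further locus was that of *ubxn-3*, an adaptor of the segregase CDC-48. It ran from 9.81 to 19.96 normalized counts (median 16.7) in *nova-1* mutants, against 6.97 to 19.8 (median 9.54) in wild-type, and the groups overlapped (log2 fold change 0.52, adjusted P = 0.346, edgeR).

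Of the 9 listed GalNAc transferase genes, *gly-7* was the other one with a locus in the table. The table holds fewer circRNAs than the study reports having detected. The *gly-7* circRNA was rarer than that of *gly-4*, at 5.35 to 12.5 normalized counts (median 8.74) in *nova-1* mutants, against 5.18 to 26.0 (median 12.8) in wild-type. The groups overlapped (log2 fold change -0.63, standard error 0.46, adjusted P = 0.311, edgeR). The study's list also gives a second *gly-4* row, which lies outside the annotated gene and was not linked to any locus of the table.

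The third list, of 41 genes for other glycan synthesis, Golgi trafficking and glycosidases, had 3 loci. That of *sqv-6*, the xylosyltransferase that starts the linker of glycosaminoglycan chains, had 39.3 to 71.9 normalized counts (median 55.3) in *nova-1* mutants, against 22.4 to 51.8 (median 32.6) in wild-type, with overlap (log2 fold change 0.68, standard error 0.27, unadjusted P = 0.0171, adjusted P = 0.0575, edgeR). It passed the adjusted threshold on column totals without TMM factors (adjusted P = 0.0421, edgeR), without *nova-1* replicate 5 (0.0451) and without wild-type replicate 5 (0.0272). The *cogc-1* locus, whose host encodes a subunit of the conserved oligomeric Golgi complex, had 2 to 7 raw counts in *nova-1* mutants and 3 to 7 in wild-type, too few to resolve a change (log2 fold change -0.35, 95% interval -1.55 to 0.86). The *aagr-2* locus, from a gene of the acid alpha-glucosidase family, had 30.6 to 50.0 normalized counts (median 36.9) in *nova-1* mutants, against 29.9 to 70.0 (median 42.9) in wild-type (log2 fold change -0.27, adjusted P = 0.505, edgeR), and its estimate was 0.0025 on column totals.

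**Figure D5:**
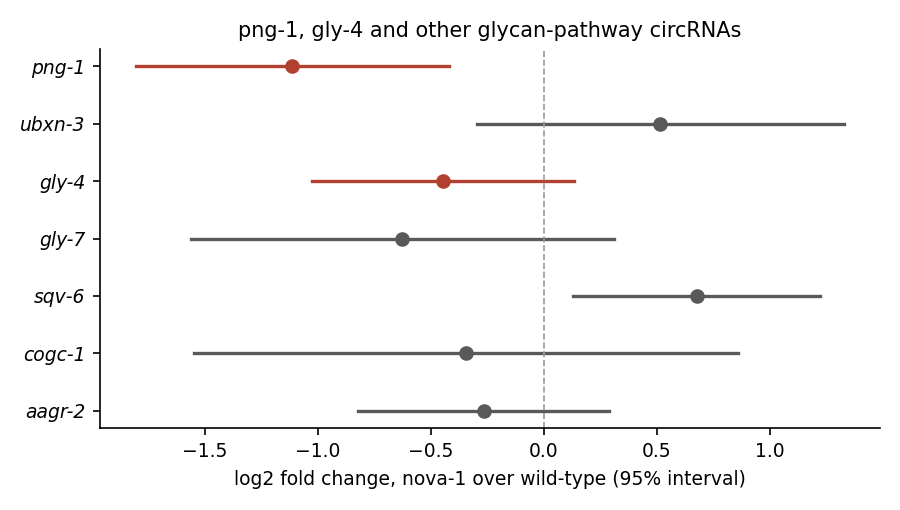
Log2 fold change of *nova-1* over wild-type with its 95% interval (x axis) for the circRNAs of *png-1* and *gly-4* (red) and of the 5 other listed genes with a locus in the table (grey). The interval of *png-1*, -1.81 to -0.42, lies below 0, that of *gly-4*, -1.03 to 0.13, spans 0, and the 5 others lie on either side.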

How the data were processed

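Raw counts per back-splice junction were deposited by the authors as one table of 141 loci and 10 samples. The study reports detecting more circRNAs than these, so ranks and shares given here refer to the deposited loci only. Per the study's methods, junctions were predicted with CIRI2 after alignment with HISAT2 and BWA, loci under 12 junction reads were dropped, and reads were mapped with Bowtie2 to 200-nt junction scaffolds, freed of duplicates and counted with featureCounts. Short scaffolds make the counts depend on reads that cross the junction, and removal of duplicates can lower high counts. Columns were matched to samples by genotype and replicate number, and the number of value columns left unused was 0.

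Host genes came from the study's list of detected circRNAs, by identical coordinates (112 loci, *gly-4* among them) or by the single row that started at most 150 nt away and whose span differed by at most 1 nt (26 loci, *png-1* among them). Exon positions are from the Ensembl annotation of WBcel235. Table coordinates were compared with exon ends under a constant shift and were not converted. No sequence is printed, because no genome was used here.

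Counts were normalized with TMM on column totals and tested with glmQLFit and glmQLFTest in edgeR 4.0.16 (R 4.3.3) on all 10 samples and all 141 loci, without covariate or filter, with Benjamini–Hochberg adjustment over all loci. Standard errors were derived from the F statistic (absolute log2 fold change over the root of F). Exact two-sided permutation tests compared shares of a library's counts (scipy 1.17.1). The fit was checked on simulated counts with a common dispersion and changes balanced in direction. That check does not cover the choice of scaling or a library of unlike composition such as wild-type replicate 1. Any 2 libraries of a genotype differed by more than sampling noise (chi-square per degree of freedom at least 2.40). Alternatives were RLE factors, DESeq2 1.42.0, column totals, sequenced reads as library size, filterByExpr, loci within 2 nt summed, robust dispersion, a replicate block and leaving out each replicate.

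Genes named are every locus of *png-1* and *gly-4*, listed pathway genes with a locus, the 3 loci with the highest Spearman correlation to each member (mean count of at least 5) and the neighbours in level; *nova-1* is named for its position. Members and lists were chosen with earlier results of these data known. Linear RNA and splicing were not analysed here.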

Additional observations from a re-analysis of the deposited data

How the results depend on the processing

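The log2 fold change of *png-1* stayed below 0 under all 8 alternative settings and all 10 fits without a replicate. It kept its adjusted P under 0.05 in all of them but 1: on column totals without TMM factors it was -0.85 (adjusted P = 0.0818, edgeR), where the median of all loci moved to 0.14, against -0.10 with TMM. Its other settings ran from -1.23 to -1.11, and the fits without a replicate ran from -1.39 to -0.93 (adjusted P 0.00793 to 0.0426, edgeR). The *gly-4* value ran from -0.57 to -0.18 over the settings and from -0.67 to -0.29 without a replicate, with no adjusted P under 0.05 (edgeR and DESeq2). The share of *png-1* in all counts differed by -0.156 to -0.104 percentage points without a replicate, and that of *gly-4* by -0.100 to -0.0149. The log2 ratio of *png-1* to *gly-4* differed by -1.04 to -0.60.

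Of the 5 other pathway loci, 1 was called on column totals, and 0 to 1 without a replicate (*sqv-6* each time). The loci called numbered 31 to 40 over the settings and 31 to 48 without a replicate, against 40 of 141. In 2 settings fewer loci were tested. With filterByExpr 32 of 118 were called and 4 other pathway loci remained, without *cogc-1*. With loci within 2 nt summed, 40 of 135 were called. With identical coordinates required for the host link, only *gly-4* would be a member.

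The labels give both genotypes the replicate numbers 1 to 5 and do not say that these mark shared handling. Deviations of same-numbered samples correlated at -0.157 to 0.147 across loci, and only wild-type replicate 2 correlated best with its own number. With the replicate number as a block, the log2 fold change was -1.18 for *png-1* (adjusted P = 0.0134, edgeR) and -0.42 for *gly-4* (adjusted P = 0.304), and 31 loci were called, so no call on the members changed. The share of 1 *gly-4* locus among *gly-4* counts was not run, as the table holds a single such locus.

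The values rest on 71 *png-1* counts over the 5 *nova-1* libraries and 140 over the 5 wild-type libraries, and on 170 and 213 for *gly-4*. For *gly-4* the SD was 7.24 in *nova-1* mutants and 14.3 in wild-type, above the square roots of the means of 5.65 and 6.60. Whether these spreads exceed counting error was not tested.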

Other observations

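The study's list names *gly-4* as the host of a second circRNA, from 19900492 to 19902761 on chromosome V. It was absent from the linked loci, yet 1 locus of the table has the same start and ends at 19902822, and the list assigns that one to *fars-2*, a mitochondrial phenylalanyl-tRNA synthetase gene. Moved by the 4612 nt that fit the other loci there, the ends of the *fars-2* locus met exon ends of *fars-2*. In these counts it had a log2 fold change of 1.12 (adjusted P = 0.00406, edgeR) with 47.0 ± 9.10 normalized counts in *nova-1* mutants and 21.6 ± 5.85 in wild-type (SD, n = 5 each). Another *fars-2* locus, from 19901715 with the same end, leaned the other way. It had 37.5 to 67.9 normalized counts in *nova-1* mutants and 59.4 to 105.6 in wild-type, with overlap. As written, the second *gly-4* row lies wholly to the right of *gly-4*, whose annotation ends at 19895350. The shift of 4612 nt moves that row further from the gene. Whether its own ends meet exon ends of *fars-2* was not tested.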
